A study of Mus musculus with 6 samples.

Results

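The genes of Wnt ligands, Frizzled receptors and secreted Wnt antagonists were examined for 2 histone marks in colonic organoids of the mouse, which are cultures of colon epithelial cells grown in 3 dimensions. They were listed by name and comprised 38 genes of the 21910 protein-coding genes of the GENCODE annotation: 19 Wnt ligands, 10 Frizzled receptors and 9 antagonists (the Sfrp genes, Frzb, the Dkk genes and Wif1). The rule for choosing them used no measured value, although earlier results of these data were known when the genes were listed. H3K4me3 is a histone mark of promoters that are open for transcription, and H3K27me3 is the mark that Polycomb repressive complex 2 places on silenced genes. A promoter, here 1000 bp on each side of every annotated transcript start, was called active when it met an H3K4me3 peak alone, repressed when it met an H3K27me3 peak alone, bivalent when it met both, and unmarked when it met neither. An overlap of 1 bp was enough. Each library pooled many cells, so peaks of both marks on 1 promoter do not show that both lay in the same cell.

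The organoids came from C57BL/6 colon and carried no altered gene. One group, wt, received no TNFα. The other, wt+TNFα, was treated for 3 weeks with TNFα at 40 ng/ml. By the study's methods, the medium for wt organoids held conditioned medium of L-WRN cells, which secrete Wnt3a, R-spondin 3 and noggin, with serum, gastrin, N-acetyl-L-cysteine, Y-27632, A83-01, SB203580 and CHIR9902, so a Wnt ligand was supplied from outside. The number of animals behind the cultures is not given in the sources used here, and age is not given either. The series held 6 libraries, with 1 H3K4me3, 1 H3K27me3 and 1 input library per condition, and each peak list rested on 1 library. There was therefore no replicate spread, no test was made, and every difference below is a difference between single libraries.

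Wnt proteins are secreted, lipid-modified ligands that bind Frizzled receptors and their co-receptors Lrp5 and Lrp6 at the cell surface, and in the canonical branch of the pathway this keeps β-catenin from being degraded. Secreted frizzled-related proteins (Sfrp1 to Sfrp5 and Frzb) and Wif1 hold Wnt ligands away from the receptors, while the Dickkopf proteins Dkk1 and Dkk2 bind the Lrp co-receptors. In the colon the pathway maintains the stem cells at the crypt base, and much of the ligand comes from the mesenchyme around the crypt as well as from some epithelial cells.

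The H3K4me3 lists were of like size, with 11552 peaks in wt and 11894 in wt+TNFα. The H3K27me3 lists were not, with 30594 peaks in wt and 60540 in wt+TNFα, and their peaks summed to 101 Mb and 228 Mb of the autosomes. On chromosome X the sums were 0.597 Mb for wt against 74.7 Mb for wt+TNFα; none of the 38 genes lies on that chromosome. On chromosome Y the H3K4me3 lists held 3 peaks in wt and 0 in wt+TNFα, and the H3K27me3 lists 0 in both. Whether the cultures of the conditions came from the same animal, or from animals of 1 sex, is not given in the sources used here, so a difference between cultures cannot be told apart from TNFα at any gene below. Of the H3K27me3 peaks, 12.8% in wt and 19.5% in wt+TNFα had a −log10 q of at least 2, so most peaks of both lists were weak. Fold enrichment, the ratio of ChIP signal to the background that the peak caller estimated with an input control, was set by the authors for each list on its own and is given side by side, not as a measured change. The epithelial label was checked with 10 colon epithelial markers, of which 9 had an H3K4me3 promoter peak in wt and 8 in wt+TNFα; Krt20, a keratin of differentiated cells, had none in wt+TNFα, and the stem cell receptor Lgr5 had H3K27me3 alone on 36.4% of its promoter bases in both conditions. Of 18 markers of fibroblasts, muscle, endothelium, immune cells, neurons and glia, 0 had an H3K4me3 promoter peak in either condition.

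Of the 5 genes whose state differed between the conditions, the sequences of Fzd4 and Fzd7 are shown first (those of Fzd8, Wnt8a and Wnt7b are not shown), beside the receptor with the highest H3K4me3 fold enrichment, Fzd1, and the ligand with the highest H3K27me3 fold enrichment in wt+TNFα, Wnt1. Fzd1 and Wnt1 were added as contrasts after their values were known. Each is the RefSeq promoter on GRCm38.p6, from 250 bases before to 50 bases after a transcript start, 5′ to 3′ on the gene's strand, and capitals mark CpG dinucleotides, the sites that gather in CpG islands.
Fzd4, chr7:89404116-89404415, plus strand: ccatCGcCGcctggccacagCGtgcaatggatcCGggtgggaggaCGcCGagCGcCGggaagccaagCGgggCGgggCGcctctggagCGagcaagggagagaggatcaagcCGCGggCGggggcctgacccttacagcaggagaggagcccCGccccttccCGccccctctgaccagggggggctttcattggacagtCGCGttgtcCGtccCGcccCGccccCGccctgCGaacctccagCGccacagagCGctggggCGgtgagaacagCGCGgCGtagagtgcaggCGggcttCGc
Fzd7, chr1:59481897-59482196, plus strand: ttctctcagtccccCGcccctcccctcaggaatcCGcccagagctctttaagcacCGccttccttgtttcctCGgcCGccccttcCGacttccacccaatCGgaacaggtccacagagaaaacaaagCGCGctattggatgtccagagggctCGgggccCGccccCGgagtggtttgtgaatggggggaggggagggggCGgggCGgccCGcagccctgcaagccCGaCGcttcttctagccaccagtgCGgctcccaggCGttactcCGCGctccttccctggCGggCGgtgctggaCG
Fzd1, chr5:4758167-4758466, minus strand: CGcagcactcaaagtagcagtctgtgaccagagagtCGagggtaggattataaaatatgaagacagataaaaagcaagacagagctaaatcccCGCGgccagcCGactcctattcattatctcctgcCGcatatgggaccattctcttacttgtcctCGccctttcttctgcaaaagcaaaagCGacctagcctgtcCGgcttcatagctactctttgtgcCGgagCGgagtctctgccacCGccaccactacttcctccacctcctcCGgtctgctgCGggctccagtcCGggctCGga
Wnt1, chr15:98789607-98789906, plus strand: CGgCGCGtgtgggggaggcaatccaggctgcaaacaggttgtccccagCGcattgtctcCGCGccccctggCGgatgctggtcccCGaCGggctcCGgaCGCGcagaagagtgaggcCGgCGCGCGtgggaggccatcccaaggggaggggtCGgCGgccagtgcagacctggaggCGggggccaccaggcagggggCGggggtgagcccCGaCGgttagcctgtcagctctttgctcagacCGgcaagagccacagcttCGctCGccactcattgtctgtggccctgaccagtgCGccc
The 300 bases held 32 CpGs for Fzd4, 24 for Fzd7, 16 for Fzd1 and 26 for Wnt1, against a median of 14 over 20148 RefSeq promoter windows of protein-coding genes. All 300 bases of Fzd4, Fzd7 and Fzd1 lay under H3K4me3 in both conditions. Those of Wnt1 lay wholly under H3K27me3 in both conditions, and those of Fzd4 under H3K27me3 in wt+TNFα but not in wt. The windows under H3K4me3 and the window under H3K27me3 alone all held more CpGs than that median.

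Most of the 38 promoters carried H3K27me3 without H3K4me3. In wt, 28 genes were repressed (73.7%), 5 active (13.2%), 4 bivalent (10.5%) and 1 unmarked (2.63%). Over all protein-coding genes, 16.5% were repressed, 45.3% active, 5.18% bivalent and 33% unmarked. In wt+TNFα, 28 of the 38 were repressed, 4 active, 6 bivalent and 0 unmarked, against 21.8%, 43.6%, 7.63% and 26.9% of all protein-coding genes. The 3 roles differed in their makeup. Ligands were repressed in 18 of 19 cases in wt, antagonists in 8 of 9 and receptors in 2 of 10, and H3K4me3 was found at 0 ligands, 1 antagonist and 8 receptors. A median member with an H3K27me3 promoter peak had a peak of 11931 bp in wt and of 14838.5 bp with TNFα, against 5248 bp and 9192 bp over all protein-coding genes with one. Promoters lying wholly under H3K27me3 numbered 20 of 38 in wt (52.6%) and 26 in wt+TNFα (68.4%), against 5.97% and 11.2% of all protein-coding genes.

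**Figure D1:**
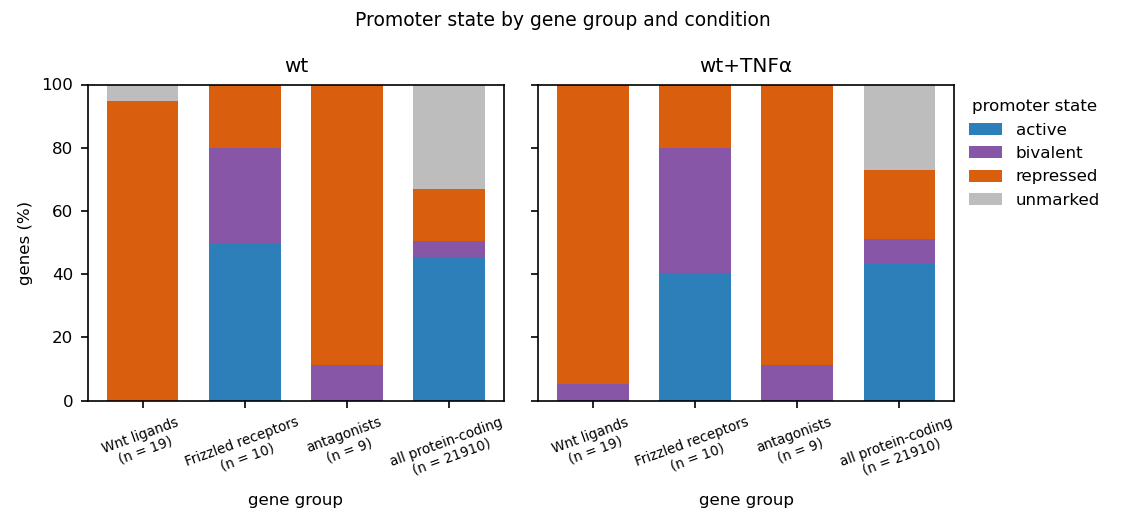
Stacked bars give the percentage of genes in each promoter state (y axis) for the 19 ligands, 10 receptors, 9 antagonists and all 21910 protein-coding genes (x axis), with wt on the left and wt+TNFα on the right, 1 library per condition and mark. Ligands and antagonists are nearly all repressed in both panels, and receptors are active in 50% of cases in wt and 40% in wt+TNFα.

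**Figure D2:**
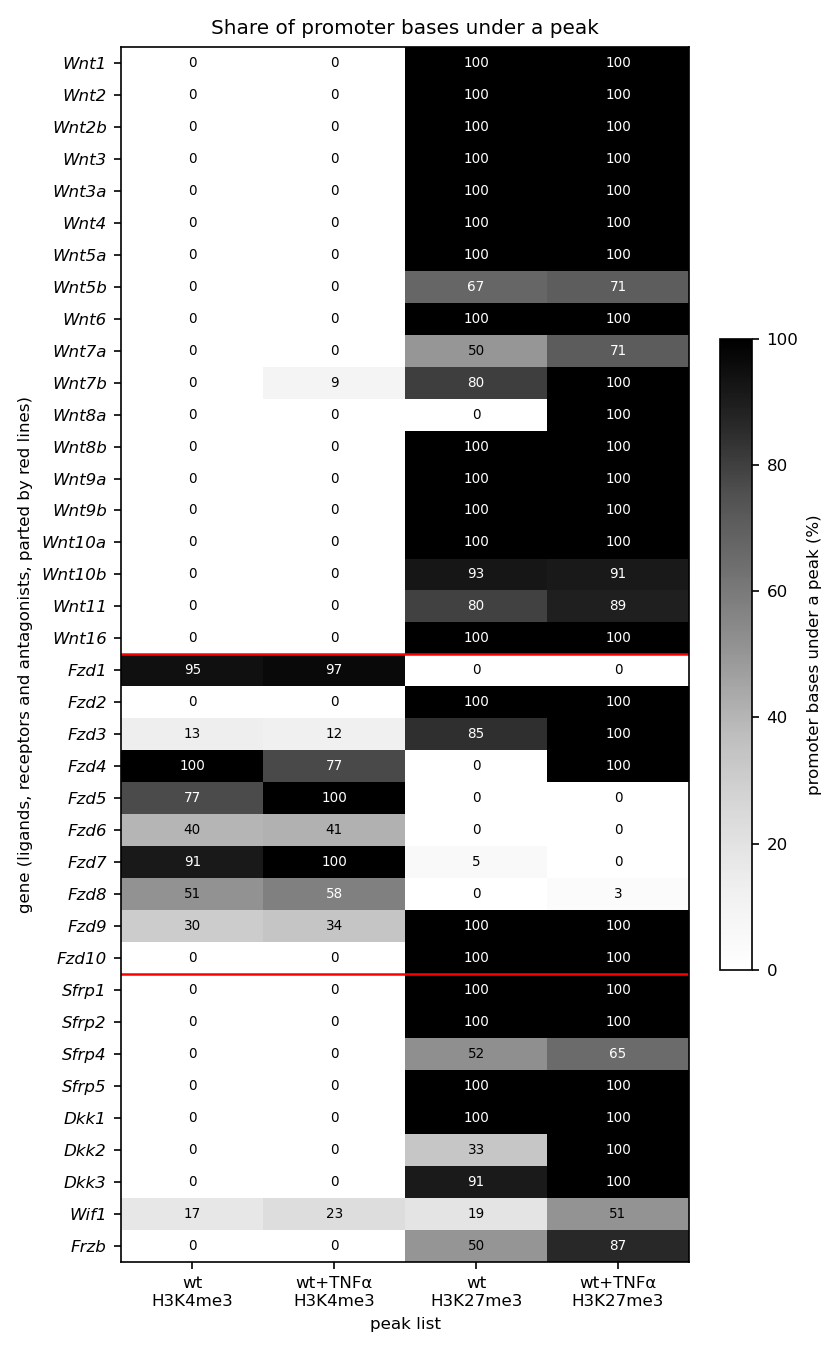
Each cell gives the percentage of a gene's promoter bases under a peak, from white (0) to black (100), for the 38 genes (rows, parted into ligands, receptors and antagonists by red lines) in the 4 peak lists (columns). The H3K4me3 columns are empty for every ligand in wt, and Fzd4 and Wnt8a go from 0 to 100 in the H3K27me3 columns.

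The ligand genes lay in long H3K27me3 domains. The widest H3K27me3 peak at a ligand promoter had a median width of 15277 bp over 18 ligands in wt and 24070 bp over 19 in wt+TNFα. The whole promoter was covered at 13 of 19 ligands in wt and at 15 with TNFα. Wnt1, a ligand of the developing midbrain, had the highest H3K27me3 fold enrichment of the ligands in wt+TNFα, 5.19, and shared the highest in wt, 4.10, with Wnt10b, which lies in the same peak. These values were higher than 99.5% of the wt H3K27me3 peaks and 99.95% of those with TNFα. Wnt3, the ligand that Paneth cells supply in the small intestine, was covered over 100% of its promoter in both conditions, by peaks of 13768 bp and 23973 bp (fold enrichment 3.54 and 3.66). Wnt5a, which acts mostly without β-catenin, was covered at 100% of the bases of its 6 starts by a peak of 11757 bp in wt and 14043 bp in wt+TNFα. Wnt4 likewise lay wholly under H3K27me3, with a peak of 13648 bp in wt and 24440 bp in wt+TNFα. No ligand promoter of these met H3K4me3.

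Several ligands that lie next to each other in the genome shared a domain. Wnt6 and Wnt10a, 6193 bp apart on chromosome 1, lay in 1 H3K27me3 peak of 50164 bp in wt (chr1:74764038-74814201) and of 50837 bp in wt+TNFα (chr1:74763216-74814052). Wnt3a and Wnt9a, 16175 bp apart on chromosome 11, lay in 1 peak of 44036 bp in wt (chr11:59276437-59320472), and in wt+TNFα the peak over both was 98746 bp wide (chr11:59237450-59336195). Its fold enrichment was 3.22 in wt and 2.95 in wt+TNFα. Wnt1 and Wnt10b, 11706 bp apart on chromosome 15, shared 1 peak of 33462 bp in wt (chr15:98776262-98809723), while wt+TNFα had separate peaks of 22231 bp at Wnt1 and 6440 bp at Wnt10b (chr15:98776306-98782745). This pair was the exception among the domains, since its peaks were narrower in wt+TNFα. Wnt3 and Wnt9b, 24328 bp apart on chromosome 11, shared no peak in either condition. Members of a pair that share a peak are not independent observations.

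**Figure D3:**
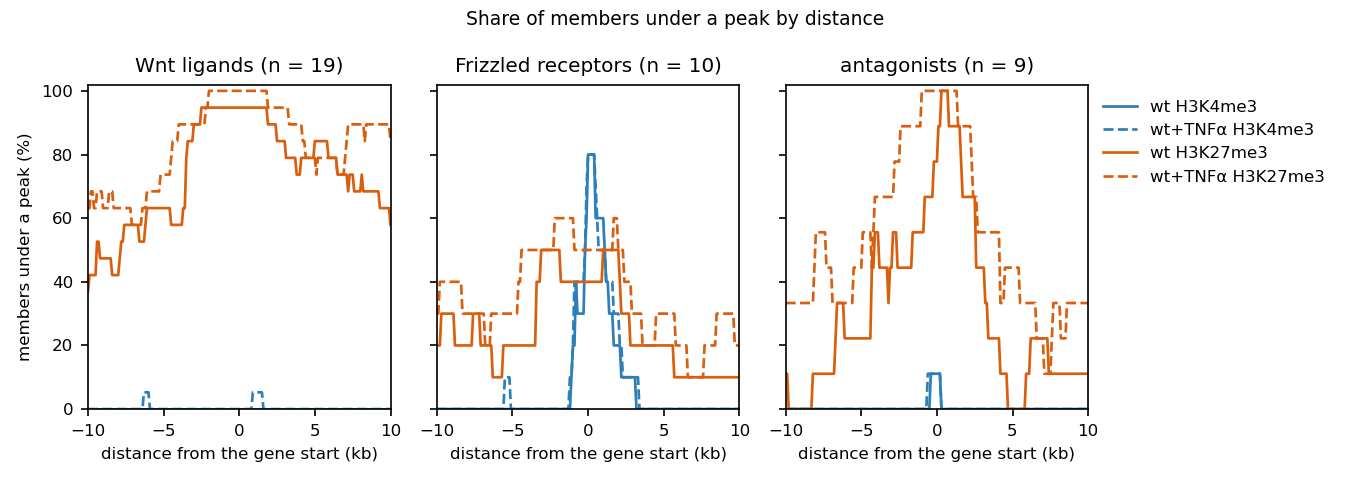
Lines give the percentage of ligands, receptors and antagonists (3 panels) under a peak at each distance from the gene start, in kb along the direction of transcription, with H3K4me3 in blue and H3K27me3 in orange, solid for wt and dashed for wt+TNFα. At the gene start 94.7% of ligands lie under H3K27me3 in wt and 100% in wt+TNFα, and at 10 kb downstream 57.9% and 84.2%; H3K4me3 at receptors reaches 80% at the start and is 0% at 5 kb on either side.

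The state of 2 of the 19 ligands differed between the conditions, a share near the 12.1% of all protein-coding genes (9.7% on autosomes) that differed. Wnt7b, which is made by many epithelia, was repressed in wt and bivalent in wt+TNFα. It had no H3K4me3 peak within 43274 bp of its gene start in wt, and in wt+TNFα a peak of 720 bp (chr15:85580895-85581614) with a fold enrichment of 4.25, which was higher than 0.261% of the peaks in its list. The new peak was thus among the weakest of the list, and the part of its library's higher read number was not tested. It covered 9.29% of the Wnt7b promoter bases, lay wholly inside the H3K27me3 domain of both conditions, which spanned 19558 bp in wt and 24737 bp with TNFα, and also met the promoter of the antisense transcript AU022754, so the mark cannot be assigned to 1 of the genes. Wnt8a, a ligand of the early embryo, was unmarked in wt, with the nearest H3K27me3 peak 4908 bp from its start. In wt+TNFα an H3K27me3 peak of 5507 bp covered 100% of its promoter (chr18:34540093-34545599), with a fold enrichment of 1.87 and a −log10 q of 1.22. Of the 34 members with H3K27me3 at the promoter in wt+TNFα, Wnt8a alone stayed under a −log10 q of 2.

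At Wnt5b and Wnt7a a later start differed from the first in wt. Wnt5b has 4 starts, of which 3 lay wholly under H3K27me3 in both conditions, while the start 77136 bp into the gene was unmarked in wt and met H3K27me3 on 11.5% of its bases in wt+TNFα. Inside Wnt5b lay a strong H3K4me3 peak (chr6:119478550-119481518 in wt, fold enrichment 38.7, and 37.1 in wt+TNFα), which met the promoter of Fbxl14, a gene nested there, and no Wnt5b start. At Wnt7a 2 non-coding starts, 46266 bp and 46292 bp into the gene, were unmarked in wt, while with TNFα H3K27me3 lay on 41.0% and 42.3% of their bases. Near Wnt2b a small H3K4me3 peak of 408 bp was listed in wt+TNFα alone, 5950 bp from the gene start (chr3:104967871-104968278, fold enrichment 8.43), where no annotated promoter lies.

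The Frizzled receptors held all of the active promoters. Fzd1, Fzd5 and Fzd6 were active in both conditions with no H3K27me3 peak at the promoter in either. Fzd1 had the highest H3K4me3 fold enrichment of the receptors, 39.4 in wt and 44.2 in wt+TNFα, with peaks of 2571 bp (chr5:4756355-4758925) and 2543 bp (chr5:4756427-4758969). Fzd5, a receptor for canonical Wnt signals in the intestinal crypt, had a broader peak. It spanned 3423 bp in wt and 4579 bp in wt+TNFα, with a fold enrichment of 38.1 and 31.0. In wt a second peak of 482 bp (chr1:64738458-64738939, fold enrichment 5.18) also met the promoter, and the wt+TNFα peak spanned both places. The covered share of the Fzd5 promoter went from 76.6%, under both wt peaks, to 100%. Fzd6, better known for planar cell polarity, was nearly the same in both lists, at 1348 bp and 1388 bp. Fzd2 and Fzd10 were repressed in both conditions, and each promoter was wholly covered. Fzd2 had the highest H3K27me3 fold enrichment of the receptors, 3.60 in wt (chr11:102600967-102616429) and 4.15 in wt+TNFα (chr11:102599789-102618742). Its nearest H3K4me3 peak was 31081 bp away or more in both lists.

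Fzd3 and Fzd9 were bivalent in both conditions, with small H3K4me3 peaks inside H3K27me3 domains. At Fzd3, another receptor of planar cell polarity, H3K4me3 spanned 534 bp in wt and 480 bp in wt+TNFα (fold enrichment 9.21 and 5.76), inside an H3K27me3 peak of 15420 bp and 19407 bp. At Fzd9, H3K4me3 spanned 610 bp and 679 bp (fold enrichment 7.51 and 9.86), within H3K27me3 peaks of 5186 bp and 17397 bp. All bases under H3K4me3 at both genes also lay under H3K27me3. The median H3K4me3 fold enrichment over all protein-coding genes with a peak was 27.6 in wt and 30.2 in wt+TNFα, above both receptors in both conditions.

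Fzd4 went from active in wt to bivalent in wt+TNFα, and both of its marks differed. Fzd4 is the receptor for Norrin as well as for Wnt ligands. In wt an H3K4me3 peak of 2024 bp (chr7:89403345-89405368) covered 100% of the promoter at a fold enrichment of 24.7. In wt+TNFα it spanned 1547 bp (chr7:89403413-89404959), covered 77.3%, and had a fold enrichment of 13.7. In the rank order of each list by fold enrichment, it was above 50.3% of the H3K4me3 peaks in wt and above 22.1% in wt+TNFα. H3K27me3 covered 0% of the promoter in wt, where the nearest peak ended 1884 bp from the gene start with a −log10 q of 0.405. In wt+TNFα an H3K27me3 peak of 8036 bp (chr7:89399856-89407891) covered 100% of it, with a fold enrichment of 2.81, above 96.3% of its list, and a −log10 q of 6.07. The H3K4me3 peak of wt+TNFα lay wholly within it. Fzd4 and Tmem135, a gene of mitochondria and peroxisomes on the opposite strand, start 133 bp apart, and 93.4% of the Fzd4 promoter is also that of Tmem135, so the difference in marks cannot be assigned to 1 of the genes.

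Fzd7 moved the other way, from bivalent in wt to active in wt+TNFα. It is a receptor of the intestinal stem cells. Its H3K4me3 peak was 2167 bp wide in wt (chr1:59481597-59483763) and 3272 bp in wt+TNFα (chr1:59481405-59484676), and its fold enrichment was 26.4 and 28.7. In wt a short H3K27me3 peak (chr1:59483333-59484590) of 1258 bp, with a fold enrichment of 2.36 and a −log10 q of 1.46, began 909 bp downstream of the gene start and covered 92 bp of the promoter. In wt+TNFα the nearest H3K27me3 peak lay 52708 bp from the gene start. The H3K4me3 peak covered 34.3% of the bases of that H3K27me3 peak in wt and 100% in wt+TNFα. The bases that carried H3K27me3 in wt were thus under H3K4me3 in wt+TNFα. With a −log10 q under 2 the wt peak was weak, and its promoter overlap was short. Its fold enrichment was nevertheless above 82.8% of the wt H3K27me3 list.

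Fzd8 went from active in wt to bivalent in wt+TNFα by a small overlap. Its H3K4me3 peak was alike in both conditions, 2159 bp and 2245 bp wide (fold enrichment 21.2 and 18.5). In wt the nearest H3K27me3 peak was 245493 bp away. In wt+TNFα one of 1278 bp (chr18:9209944-9211221, fold enrichment 2.25, −log10 q 2.56) met the promoter with 59 bp upstream of the H3K4me3 peak, and a second of 1125 bp inside the gene (fold enrichment 2.12) met the downstream end of the H3K4me3 peak, beyond the promoter. At the promoter 0 bp carried both marks. Within the promoter the marks therefore lay side by side and not on the same bases.

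**Figure D4:**
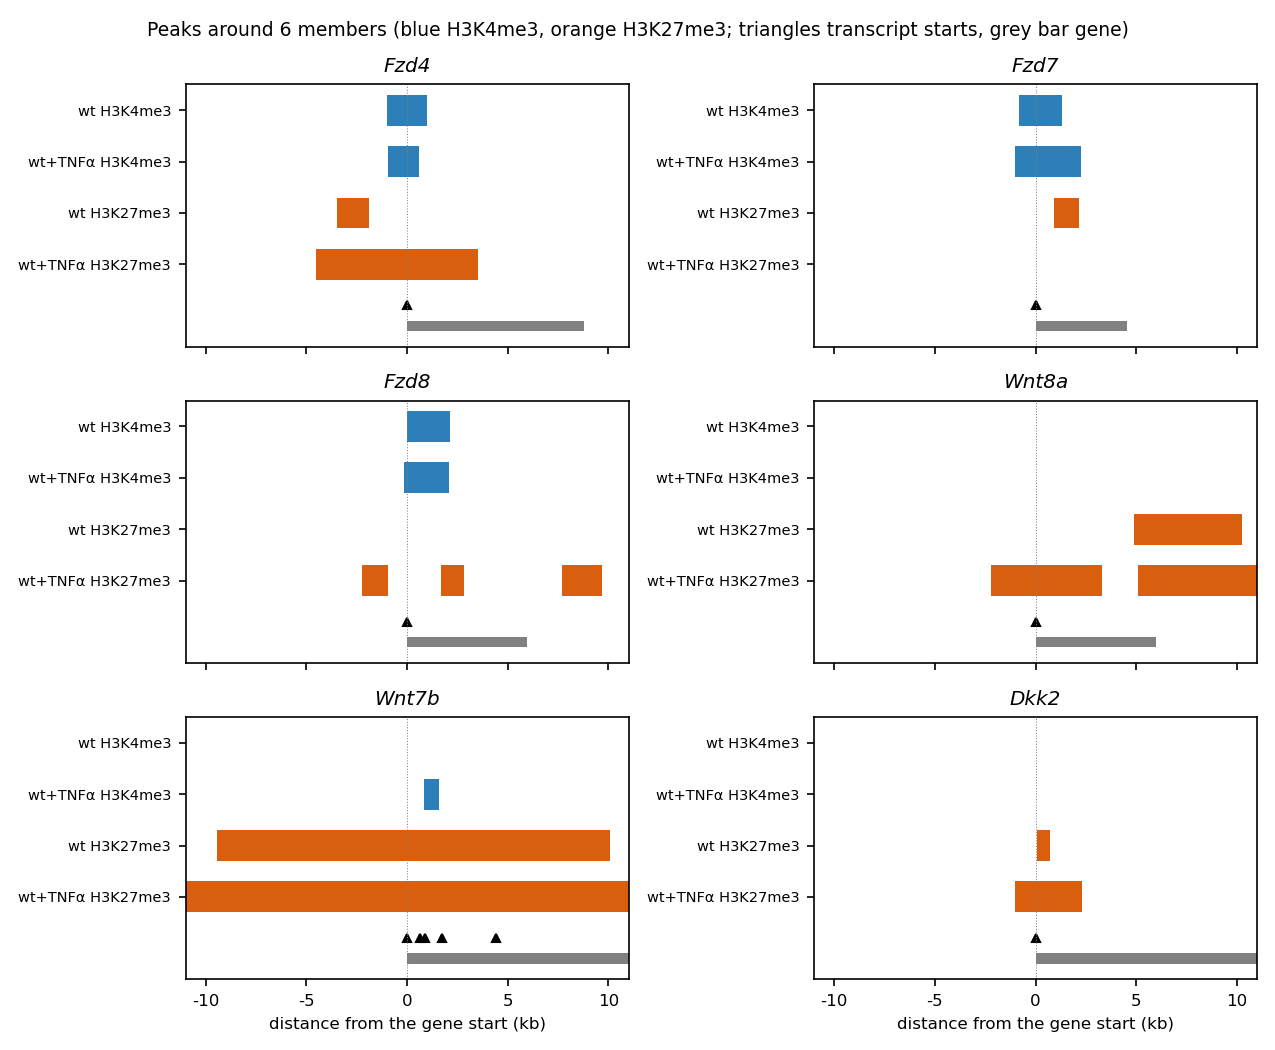
Horizontal bars show H3K4me3 (blue) and H3K27me3 (orange) peaks of the 4 lists from 11 kb upstream to 11 kb downstream of the gene start (x axis, in the direction of transcription) for the 5 genes with another state in wt+TNFα and for Dkk2; black triangles mark transcript starts and the grey bar the gene. At Fzd4 an H3K27me3 peak of 8036 bp spans the start in wt+TNFα, and at Fzd7 the H3K27me3 peak of 1258 bp is found in wt alone.

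The secreted antagonists carried H3K27me3 at every promoter in both conditions. Sfrp1, Sfrp2, Sfrp4, Sfrp5, Frzb, Dkk1, Dkk2 and Dkk3 were repressed in both conditions, and none met an H3K4me3 peak. Sfrp5 had the highest H3K27me3 fold enrichment of the antagonists in wt, 3.93 (chr19:42198114-42203877), with 3.90 in wt+TNFα. Sfrp1 had the highest in wt+TNFα, 4.42 (chr8:23407277-23414102), with 3.36 in wt, and its peak had nearly the same width in both, 6822 bp and 6826 bp. Antagonist peaks were narrower than those of ligands, with a median of 4327 bp in wt and 7928 bp in wt+TNFα.

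At several antagonists more of the promoter lay under H3K27me3 in wt+TNFα. Dkk2 was covered over 33.2% of its promoter in wt, by a peak of 665 bp (chr3:132085355-132086019) with a −log10 q of 0.417, and over 100% in wt+TNFα, by a peak of 3329 bp (chr3:132084284-132087612) with a −log10 q of 4.46. Its fold enrichment was 1.97 in wt against 2.65. The repressed state of Dkk2 in wt rests on this weak peak alone. Frzb went from 50% to 86.6%, since a second peak met its non-coding start in wt+TNFα while its coding start was wholly covered in both. Sfrp4 went from 52.1%, under a peak with a −log10 q of 1.56, to 65.4% under one of 3.28, so its repressed state in wt also rests on a weak peak. With a minimum −log10 q of 2, Dkk2 and Sfrp4 were unmarked in wt and repressed in wt+TNFα. Dkk3 went from 90.7% to 100%. Dkk1, a feedback target of the pathway, was wholly covered in both conditions by peaks of 3817 bp and 9099 bp.

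Wif1 was the bivalent antagonist in both conditions. Its H3K4me3 peak was 709 bp wide in wt (chr10:121033476-121034184, fold enrichment 10.8) and 931 bp in wt+TNFα (chr10:121033329-121034259, fold enrichment 14.0). In wt the H3K27me3 peak of 4327 bp (chr10:121034249-121038575) began downstream of it, and 0 promoter bases carried both marks. In wt+TNFα an H3K27me3 peak of 18296 bp (chr10:121023833-121042128) spanned the start, and all 931 bp under H3K4me3 also lay under H3K27me3. Fold enrichment of the H3K27me3 peaks was 2.54 in both lists. The promoter share under H3K27me3 went from 19.1% to 50.8%. These shares include a non-coding start 49795 bp into the gene that met no peak in either condition. At the first start the share went from 35.6% to 100%, and at the start 64 bp on from 38.8% to 100%. Wif1 kept its label while the position of the marks relative to each other differed.

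Over all 38 genes, 5 had another state in wt+TNFα than in wt (13.2%), against 12.1% of all protein-coding genes and 9.7% of those on autosomes, a share near the background. An H3K27me3 promoter peak was found in wt+TNFα alone at 3 genes (Wnt8a, Fzd4 and Fzd8), where the background was 9.01%, or 6.47% on autosomes, and in wt alone at 1 (Fzd7), where it was 1.21%. An H3K4me3 promoter peak was found in wt+TNFα alone at 1 gene (Wnt7b), with a background of 1.49%, and in wt alone at 0, with a background of 0.744%. The covered share under H3K27me3 was larger in wt+TNFα at 13 genes (34.2%) and smaller at 2 (5.26%, Wnt10b and Fzd7). Over all protein-coding genes the shares were 20% and 3.76%, and on autosomes 17.6% and 3.96%. The covered share under H3K4me3 was larger at 8 genes (21.1%) and smaller at 2 (5.26%, Fzd3 and Fzd4), against 36.5% and 13.2% of all protein-coding genes. Genes with no peak in either list, or wholly covered in both, count as equal in these shares. In wt, 32 of the 38 members but 4749 of the 21910 protein-coding genes had an H3K27me3 promoter peak. Among the 31 members with an H3K27me3 promoter peak in both conditions, the widest peak was wider in wt+TNFα at 29 (93.5%), and its median width ratio was 1.42, against 87.0% and 1.77 over the 4484 protein-coding genes with both. The larger widths of wt+TNFα were thus a trait of the whole list, and its part in the differences at single genes was not tested.

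The promoters of the 38 genes were also compared by their sequence, which the choice of genes did not use. In the 2001 bp around the gene start, the ratio of observed to expected CpG had a median of 0.630 over the 38 genes, from 0.283 at Wnt8a to 0.923 at Fzd3, and a median of 0.474 over all protein-coding genes. Receptors had the highest median, 0.736, followed by ligands at 0.616 and antagonists at 0.561, with ranges that overlapped. The 28 members repressed in wt had a median of 0.613, against 0.425 over the 3615 repressed protein-coding genes and 0.632 over the 9930 active ones. Of the 24 members with a ratio of at least 0.6, 16 (66.7%) were repressed in wt and 4 (16.7%) active, while of all 7431 protein-coding genes with such a ratio 895 (12.0%) were repressed and 76.1% active. Wnt8a, which was unmarked in wt, had the lowest ratio of the 38.

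**Figure D5:**
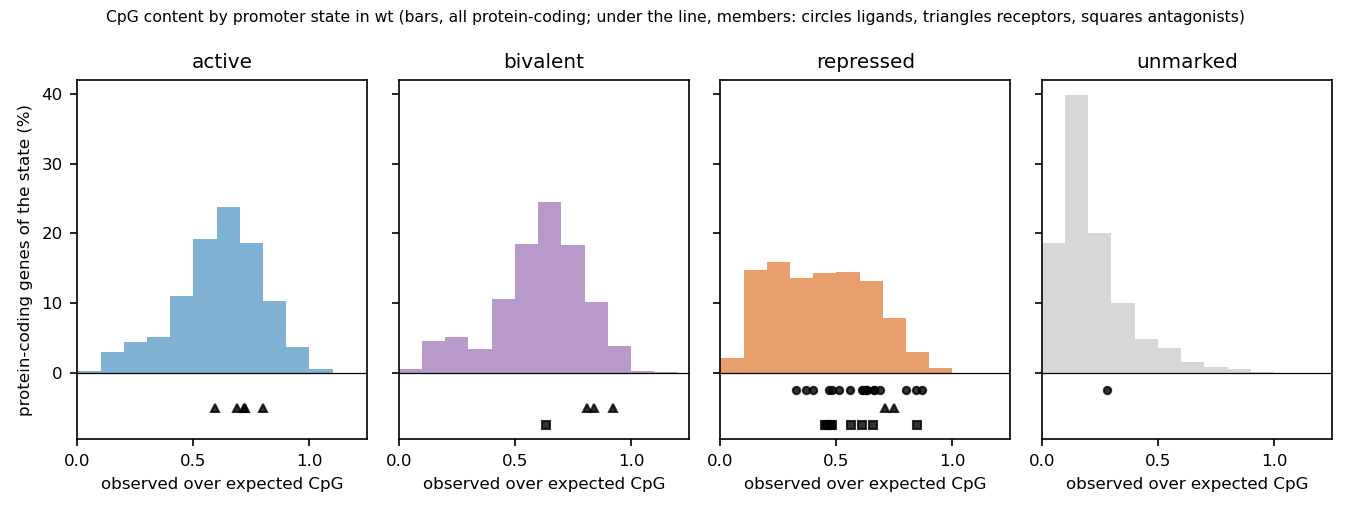
Bars give the percentage of all protein-coding genes of each wt promoter state (4 panels) by the ratio of observed to expected CpG in the 2001 bp around the gene start (x axis, steps of 0.1); marks under the zero line are the 38 members, with circles for ligands, triangles for receptors and squares for antagonists. The 28 repressed members spread from 0.326 to 0.870.

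RefSeq promoter windows were at hand for 27 of the 38 genes, in 30 windows. The core TCF/LEF motif ATCAAAG, read on both strands, was found in 2 of the 30 windows (6.67%), at Wnt5b and Wnt11, against 3.16% of 20148 windows of protein-coding genes. The NF-kappaB consensus, the motif of the factor that TNFα activates, was found in 1 of the 30 (3.33%), at Wnt10b, against 4.97%, and thus in no window that held the other motif. Neither motif was in the windows of Fzd4, Fzd7, Fzd1 and Wnt1 shown above, which says only that these letters are not in those 300 bases.

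The rest of the pathway was read from a list of 40 genes, which did not include the 38. In wt, 21 were active (52.5%), 3 bivalent (7.5%), 14 repressed (35%) and 2 unmarked (5%), beside 45.3%, 5.18%, 16.5% and 33% of all protein-coding genes. With TNFα the counts were 20 (50%), 3 (7.5%), 15 (37.5%) and 2 (5%), beside 43.6%, 7.63%, 21.8% and 26.9%. Of 12 intracellular components, 10 were active in both conditions, among them Ctnnb1 (β-catenin), Apc, Axin1, Axin2 and the 3 Dishevelled genes, and of 3 genes for processing and secretion of Wnt proteins, Wls, the carrier that brings the ligands to the surface, was active in both. The co-receptors Lrp5 and Lrp6 were active in both conditions. All 4 R-spondin genes, whose proteins raise Wnt receptor levels at the surface, were repressed in both, and so were the R-spondin receptors Lgr5 and Lgr6. The promoter share under H3K27me3 was 100% in wt and 33.3% in wt+TNFα at Lgr6, and 44.6% and 100% at Rspo2. The third receptor, Lgr4, and the receptor-removing ligases Znrf3 and Rnf43 were active in both conditions. Of the other secreted factors, Notum, Dkkl1, Sost and Sostdc1 were repressed and Dkk4 unmarked in both conditions. Of the 40, 4 (10%) had another state in wt+TNFα, near the 12.1% of all protein-coding genes: Porcn, the enzyme that attaches lipid to Wnt proteins, went from active to bivalent and lies on chromosome X with its large difference in H3K27me3 between the lists; Ror1 and Nkd1 went from bivalent to repressed, and Ptk7 from repressed to bivalent.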

How the data were processed

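ChIP-seq for H3K4me3 and H3K27me3 was made on colonic organoids without (wt) and with TNFα (wt+TNFα), 1 library each. Per the labels and the study's methods, the authors aligned reads to GRCm38/mm10 with BWA 2.2, processed them with SAMtools 1.11 and called peaks against the input with MACS2 2.1.0, as narrow peaks for H3K4me3 and broad peaks for H3K27me3; another part of the study's documents names a different MACS2 version. The sample labels give a depth of 60 M reads for H3K27me3 and 40 M for H3K4me3 and input, and the study's documents list more reads for wt+TNFα than for wt in H3K4me3 and input and nearly equal reads in H3K27me3. Reads and inputs were not analysed here. The deposited lists give fold enrichment as a ratio, p-values and q-values as −log10, and a score and summit position that were not used. The name of the wt+TNFα H3K27me3 list alone mentions no spike-in.

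Peaks were set to 1-based coordinates and joined to transcript starts of GENCODE M21 by symbol with Python 3.11.15 and numpy 2.4.6; plots used matplotlib 3.10.9. All peaks lay within the chromosome lengths of GRCm38.p6. Observed over expected CpG is the number of CpG times the length over the product of the numbers of C and G. Simulated peak lists, with peaks placed in a promoter or just outside it, were run through the same steps. The genes used lay apart from other protein-coding genes. For 1600 genes 100% of the states were recovered, which checks the code alone and not shared promoters, short overlaps or the peak calls. With 1 library per group no test, error or p-value was possible, and the 9 alternatives are described under the closing heading. Described with their values are genes whose state differs, genes whose covered share differs by at least 50 percentage points, the highest fold enrichment per role, and neighbours that share a peak; other genes and the Fzd1 and Wnt1 sequences were added for their roles or after their values were seen. The 38 genes and all lists were chosen with earlier results of these data known.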

Additional observations from a re-analysis of the deposited data

How the results depend on the processing

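No paired analysis was possible because each condition has 1 library per mark. Of the 38 genes, 28 kept both states under all 9 alternatives and 10 had another under at least 1. With promoters of 500 bp on each side, 3 genes had another state in wt+TNFα than in wt, and 0 had an H3K27me3 promoter peak in wt alone; both counts were the same with an overlap of at least 200 bp, 3 and 0, where Wnt7b, Wnt8a and Fzd4 remained. With the 1000 bp upstream alone, 2 genes were bivalent and 2 unmarked in wt, 0 had H3K27me3 in wt alone and 5 in wt+TNFα alone. With H3K27me3 peaks of −log10 q of at least 2, 3 genes were unmarked in wt and 1 in wt+TNFα, and 0 had H3K27me3 in wt alone. With only the stronger part of each list, above its median −log10 q, 3 were active, 0 bivalent and 4 unmarked in wt, and 0 were bivalent and 1 unmarked in wt+TNFα. With equal numbers of peaks per mark, 1 was unmarked in wt+TNFα, 3 had another state (Fzd4, Fzd7 and Fzd8) and 0 had H3K4me3 in wt+TNFα alone. The cause was not tested. Promoters of 2000 bp, 1 start per gene and coding starts alone moved none of the 15 counts by over 1.5 times. The reported change itself was found under 7 of 9 alternatives for Fzd4 and Wnt7b, 6 for Fzd8 and Wnt8a and 4 for Fzd7. Under the median filter Fzd4 and Fzd8 went instead from unmarked to repressed and Fzd7 from repressed to active, and with 2000 bp on each side Fzd4 was bivalent in both conditions. The lists give no read counts at promoters, so how far depth limits a missing peak is unknown.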
